A study of Rattus norvegicus with 12 samples.

Results

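The first response of FaO rat hepatoma cells to α-lipoic acid (α-LA) was read from the single array of cells exposed for 6 h, set against the 3 control arrays. A probe was taken as part of the 6 h response when its log2 signal differed at least 1.5-fold from the mean log2 signal of the controls and lay beyond all 3 of them. Of 22523 probes on the array, 9193 reached a signal of 150 on at least 3 arrays, and 137 of these met the rule. Signal was higher at 6 h for 88 probes (0.957% of those measured), of which 72 carry the symbol of 69 genes, and lower for 49 probes (0.533%), of which 34 carry the symbol of 34 genes. The 6 h sample has no replicate, so its differences are described without a p-value, and the later arrays show how far they held.

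FaO cells are an established line derived from a rat hepatoma, and all 12 samples were kept in medium with 2% foetal calf serum during treatment. α-LA at 500 µM was given daily and cells were taken at 6, 18, 24, 30, 42, 48 and 72 h, 1 array per time. A pair of further arrays came from cells given 1 dose of thapsigargin (TG, 0.1 µM), an inhibitor of the calcium pump of the endoplasmic reticulum (ER). TG arrays are titled 18 and 24 h, whereas the treatment protocol names 6 and 18 h for TG. The 3 controls were not given either agent. RNA of 3 culture wells was pooled for each sample, and nothing states that the controls were separate cultures or at which hour they were taken. Hours of α-LA and hours in low serum therefore cannot be told apart here. α-LA had been dissolved in sodium hydroxide and neutralized and TG in dimethyl sulfoxide, and whether controls received a vehicle is not stated by the labels or methods read here.

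α-LA is a sulphur-containing cofactor of mitochondrial enzyme complexes that cells also reduce to a dithiol. Oxidants and electrophiles modify cysteines of KEAP1, which releases the transcription factor NRF2, and NRF2 pairs with small MAF proteins at antioxidant response elements of genes for glutathione synthesis, thioredoxin reduction and quinone detoxification. A separate route, phosphorylation of eIF2α by PERK or by kinases that sense heme or amino acids, favours translation of ATF4, which in turn acts on Ddit3 (CHOP), Trib3 and other stress genes. In liver cells insulin and glucocorticoids set Pck1, G6pc1 and Igfbp1 through FOXO factors and the glucocorticoid receptor.

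Median signals of the 12 arrays lay between 132.7 and 132.8, since the values had been quantile normalized. Signals kept a background near 130, so folds of dim genes are understated. Control 1 stood apart from the others, with Pearson r of 0.990 and 0.992 against controls 2 and 3, compared with 0.997 between controls 2 and 3. The 6 h array correlated with controls 1, 2 and 3 at 0.989, 0.992 and 0.993. These are correlations across probes, which are not independent replicates. For 354 probes (3.85%) the controls themselves spanned 1.5-fold or more, among them 12 of the 137. Of 7 hepatocyte markers on the array, 5 (Alb, Fgb, Serpina1, Tf and Ttr) stood above 150 on every array. The other 2 were under 150 on every array, and Hnf4a was not among the 5. Summed over the 7 hepatocyte markers on the array, signal was 64786 at 6 h, against 68080 to 84079 in controls. None of the macrophage, endothelial or cholangiocyte markers on the array reached 150 anywhere. Among stellate cell markers only Des did so on some arrays.

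Igfbp1, a secreted binding protein for insulin-like growth factors, showed the largest 6 h difference of any named gene. Its signal was 14361 at 6 h, against 4716, 4217 and 3879 in controls 1, 2 and 3, a 3.37-fold difference. Osgin1, an oxidative stress-induced growth inhibitor, had a signal of 2915 at 6 h, against 1377, 1470 and 1402 in controls (2.06-fold). At the other end, Pck1, the cytosolic enzyme that commits oxaloacetate to gluconeogenesis, had a signal of 1643 at 6 h, against 5152, 4706 and 4430 in controls. That is a 2.89-fold lower signal, and lying below all 3 controls is part of the rule that chose the probe. A difference of 2-fold or more was seen for 11 probes that were higher and 5 that were lower. The plot of all probes shows how few left the cloud at 6 h.

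**Figure D1:**
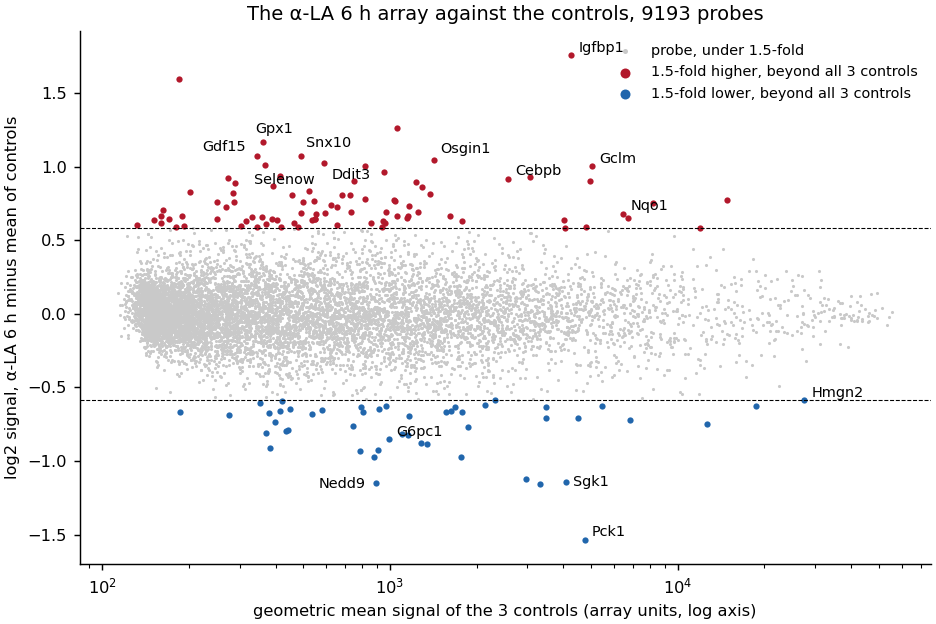
Each point is 1 of 9193 probes, placed by the geometric mean signal of the 3 controls (log axis) and by its log2 signal on the α-LA 6 h array minus the mean log2 signal of the controls; dashed lines mark 1.5-fold. The 88 red probes and 49 blue probes form the 6 h response, with Igfbp1 at 1.75 and Pck1 at -1.53 as the outermost named genes.

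The NRF2 response held the largest number of higher genes among the lists examined. Of 42 listed genes 34 were measured, and 9 of them were at least 1.5-fold higher at 6 h, none lower. Signal lay above all 3 controls for 24 of the 34 and below all of them for 4. Over the 6552 named genes measured (1 probe each), 67 were at least 1.5-fold higher and 33 lower. Of the same 6552, 25.8% lay above and 29.6% below all controls, which is the background for every list. The median 6 h log2 difference was 0.39 for the list and -0.01 for all genes. The 9 genes were Sqstm1, Osgin1, Gclm, Txnrd1, Nqo1, Hmox1, Gclc, Slc7a11 and Me1.

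Promoter sequences of the named members were searched for the antioxidant response element, in letters TGACNNNGC on either strand, to show where such a stretch lies. RefSeq promoter windows of 300 bases (250 before the annotated start and 50 after it, build GRCr8) matched 57 of the higher named genes and 30 of the lower ones. The element was present in 11 of 57 higher genes' windows (19.3%), in 2 of 30 lower genes' windows (6.67%) and in 4038 of all 33469 windows (12.1%). A member gene entered with 1 window, whereas all windows were counted without that limit, so the units differ. Among the 9 NRF2 genes it was found for Gclm and Me1. Not every named member had a window, and other starts of a gene were not searched. A composite element bound by CHOP and ATF4, TGATGNAAN, was present in 2 of 57 windows of higher genes (Hrk and Trib3), in 1 of 30 windows of lower genes (G6pc1) and in 3.97% of all windows. A match describes letters and is neither a binding site nor a cause. Shown here are 60-base stretches, 5′ to 3′ on the gene's strand, with the element in capitals, for a subunit of glutathione synthesis (Gclm), a partner of NRF2 (Mafk), a subunit of the lysosomal proton pump (Atp6v1a) and the stress factor C/EBPβ (Cebpb), all higher at 6 h, followed by Trib3 with the CHOP and ATF4 element. In Gclm, Mafk and Trib3 the element reads on the opposite strand.
Gclm, chr2:213031937-213031996, plus strand: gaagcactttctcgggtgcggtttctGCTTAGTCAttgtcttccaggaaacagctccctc
Mafk, chr12:19959200-19959259, minus strand: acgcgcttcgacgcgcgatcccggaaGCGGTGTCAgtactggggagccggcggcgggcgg
Atp6v1a, chr11:70067252-70067311, plus strand: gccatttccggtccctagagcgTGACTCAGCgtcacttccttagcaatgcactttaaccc
Cebpb, chr3:176816918-176816977, plus strand: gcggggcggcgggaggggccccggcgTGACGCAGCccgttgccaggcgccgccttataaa
Trib3, chr3:161275534-161275593, minus strand: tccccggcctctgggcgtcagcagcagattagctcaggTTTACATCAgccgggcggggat

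Glutathione synthesis genes were among the higher ones. Gclm, the modifier subunit of glutamate-cysteine ligase, had a signal of 10096 at 6 h, against 5486, 4690 and 4993 in controls (2.00-fold). That level was not held. On the later arrays its signal was 4815, 4464, 5289, 4283, 4888 and 5865 at 18, 24, 30, 42, 48 and 72 h, within or close to the control range. Gclc, the catalytic subunit of the same enzyme, was 1.56-fold higher, with a signal of 6268 at 6 h, against 4531, 3891 and 3706 in controls. Unlike Gclm it stayed above every control thereafter, between 5777 and 7844. Slc7a11, which exchanges glutamate for the cystine from which glutathione is made, read 201 at 6 h. All 3 controls were under 150, so its difference is at least 1.34-fold, and by 42 to 72 h its signal was 285 to 302.

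Thioredoxin and quinone reductases were higher at 6 h. Txnrd1, cytosolic thioredoxin reductase, had a signal of 2344 at 6 h, against 1215, 1339 and 1318 in controls, and 1496 to 2082 on the later arrays. Nqo1, which reduces quinones, reached 10352 at 6 h, against 5857, 7372 and 6276 in controls. Its signal was below all 3 controls from 18 to 48 h (3379 to 5208) and was back at 10024 on the 72 h array. Both genes thus had their highest α-LA signal at 6 h.

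Hmox1, Mafk and 1 probe of Sqstm1 went on to higher levels. Hmox1, heme oxygenase, had a signal of 568 at 6 h, against 386, 347 and 347 in controls (1.58-fold), and 1196 to 1631 on all later arrays. Slc48a1, a heme transporter of endolysosomes, was 1.82-fold higher at 6 h, with a signal of 713, and read 520 to 991 later, against 357 to 452 in controls. Mafk, a small MAF partner of NRF2, had a signal of 1568 at 6 h, against 904, 1059 and 952 in controls, and 4437 and 4624 at 42 and 48 h. All 3 probes of Sqstm1, the autophagy receptor p62, were higher at 6 h, by 2.40-, 1.70- and 1.62-fold. They parted afterwards. For the first, signal was 2642 to 5553 at 18 to 72 h, against 798 to 1240 in controls, whereas the third read 741 to 1365, against 1033 to 1385 in controls. Nfe2l2, the gene of NRF2 itself, read 3100 at 6 h, against 4908, 4034 and 4400 in controls, a log2 difference of -0.52 that did not reach 1.5-fold.

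Among selenoproteins, Gpx1 and Selenow were higher at 6 h and no longer so at 72 h. Of 20 measured genes of selenoproteins and selenium handling, 3 were at least 1.5-fold higher and 0 lower, and their median log2 difference was 0.00. Above all controls lay 8 (40%) and below them 6 (30%), beside 25.8% and 29.6% of all genes. Gpx1, the cytosolic glutathione peroxidase, had a signal of 812 at 6 h, against 352, 379 and 354 in controls (2.25-fold). Afterwards it read 415, 387, 448, 475, 386 and 298 from 18 to 72 h. Selenow, a small selenoprotein of redox function, had a signal of 737 at 6 h, against 323, 384 and 396 in controls (2.01-fold), and 329 to 484 later. Txnrd1, described above, was the third, and it stayed above every control on the later arrays. Gpx4, by contrast, differed by a log2 of 0.19 at 6 h.

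**Figure D2:**
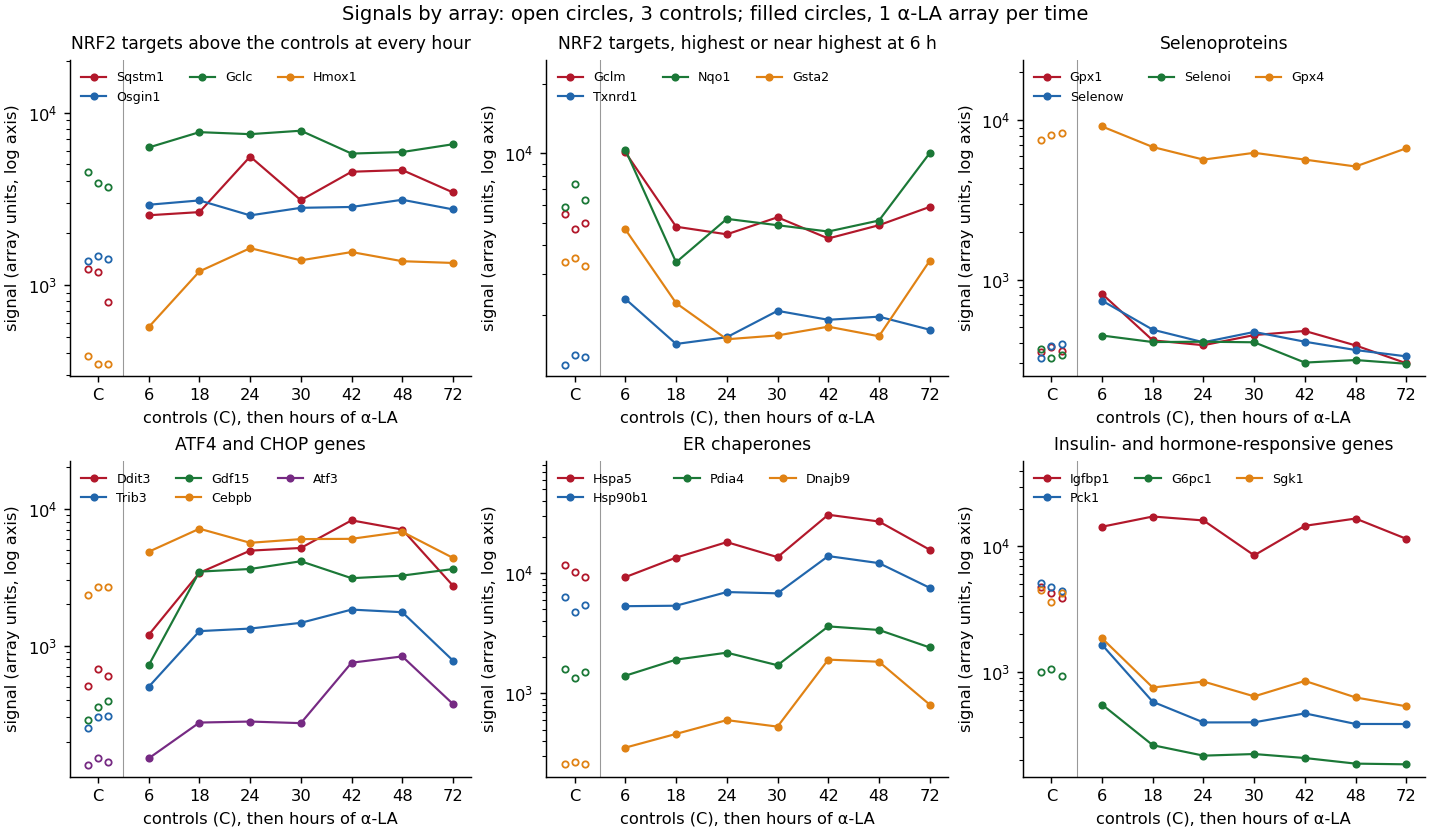
Signal (array units, log axis) on the 3 controls (open circles, C) and on the α-LA arrays from 6 to 72 h (filled circles, 1 array each) for genes of 6 roles. Gpx1, Selenow and Gclm have their highest α-LA signal at 6 h. Ddit3, Gdf15 and Trib3 start at 6 h and are higher at 18 h. Pck1, G6pc1 and Sgk1 are lower at 6 h and lower again later.

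Ddit3, Gdf15, Trib3 and Cebpb, stress genes downstream of ATF4, were already higher at 6 h. Of 22 measured genes on the list for PERK, ATF4 and CHOP, 4 were at least 1.5-fold higher and 0 lower, with a median log2 difference of 0.21. Above all controls lay 13 (59.1%) and below them 1 (4.5%), beside 25.8% and 29.6% of all genes. Ddit3, the gene of the pro-apoptotic factor CHOP, had a signal of 1202 at 6 h, against 505, 680 and 604 in controls (2.03-fold). It read 3407 at 18 h, 8213 at 42 h and 2741 at 72 h. Gdf15, a secreted stress cytokine, had a signal of 722 at 6 h, against 288, 356 and 396 in controls (2.10-fold), and 3109 to 4132 on every later array. Trib3, a pseudokinase induced by CHOP, had a signal of 502 at 6 h, against 251, 301 and 306 in controls (1.76-fold), and 780 to 1836 later. These 3 genes were therefore lower at 6 h than on each of the later α-LA arrays.

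Cebpb, a transcription factor of the liver stress and acute phase response, was the fourth of the branch. Its signal was 4847 at 6 h, against 2351, 2672 and 2683 in controls, and 4372 to 7135 later. Atf3, another target of ATF4, was at the level of the controls at 6 h, with a signal of 151, against 136, 151 and 143, and read 752 and 836 at 42 and 48 h. Ppp1r15a, whose product reverses eIF2α phosphorylation, read 231 at 6 h, against 154, 178 and 196 in controls, a log2 difference of 0.40. Other members linked to cell death were Hrk, a BH3-only activator of apoptosis (357 at 6 h, against 218, 201 and 185 in controls), and Casp4, an inflammatory caspase (392, against 270, 246 and 237).

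Chaperones of the ER showed no such early rise. None of 20 measured genes reached 1.5-fold either way, and the median log2 difference was -0.07. Above all controls lay 2 (10%) and below them 10 (50%), beside 25.8% and 29.6% of all genes, so the list leaned lower. Hspa5, the chief ER chaperone (GRP78), had a signal of 9304 at 6 h, against 11820, 10352 and 9402 in controls, and 27029 to 30759 at 42 to 48 h. Xbp1, the factor spliced by IRE1, was lower by a log2 of -0.42. Dnajb9, a co-chaperone of Hspa5, differed by 0.43 the other way, with a signal of 353 at 6 h, against 257 to 270 in controls.

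Pck1, G6pc1 and Sgk1, genes of glucose output and hormone response, were lower at 6 h. In the list of gluconeogenesis and glucose output, 8 of 14 measured genes (57.1%) lay below all controls and 2 (14.3%) above. Over all genes the shares were 29.6% and 25.8%. At least 1.5-fold lower were 2 of the 14, and 0 were higher. These were Pck1 and G6pc1, the glucose-6-phosphatase that releases free glucose. Its signal was 548 at 6 h, against 1004, 1049 and 922 in controls (1.81-fold lower), and 183 to 260 on all later arrays. Pck1 itself read 577 at 18 h and 384 to 467 from 24 h on. Sgk1, a serum- and glucocorticoid-regulated kinase, had a signal of 1850 at 6 h, against 4464, 3592 and 4237 in controls (2.21-fold lower), and 531 to 847 later. For all 3 genes the 6 h signal lay between the controls and the later arrays.

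The hormone lists did not move one way as wholes. Of 13 measured insulin and FOXO genes, Igfbp1 was higher and Pck1 and G6pc1 were lower. The 11 measured glucocorticoid response genes gave 2 lower ones, Sgk1 and Errfi1, an inhibitor of the EGF receptor, and none higher. Errfi1 read 508 at 6 h, against 893, 749 and 787 in controls, and was back at 650 to 1117 later. Tat, tyrosine aminotransferase, a classical glucocorticoid target in hepatoma cells, differed by a log2 of 0.08 at 6 h. Igfbp1 stayed high, with 17322, 16112, 8488, 14605, 16686 and 11497 from 18 to 72 h.

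Other lower genes came from adhesion, signalling and hepatocyte metabolism. Nedd9, a scaffold of focal adhesion signalling, had a signal of 405 at 6 h, against 853, 844 and 1003 in controls (2.21-fold lower), and 249 to 374 later. Tle2, a Groucho-type corepressor, was 1.91-fold lower and Cxcl1, a neutrophil chemokine, 1.90-fold lower. Hdc, which makes histamine from histidine, read 731 at 6 h, against 1339, 1383 and 1319 in controls. Among enzymes of drug and peroxisomal metabolism, Cyp2e1, Fmo1, Hao1 and Pxmp2 were each 1.55- to 1.75-fold lower at 6 h and lower again on all later arrays. Of secreted hepatocyte proteins, Ttr (transthyretin) and Serpina6 (corticosteroid-binding globulin) were 1.59- and 1.65-fold lower. Ttr read 1125 at 6 h, but its controls spread from 1284 to 2131. A dimmer probe of Alb was 1.63-fold lower, whereas its brighter probe differed by a log2 of -0.20. A second probe of Serpina6, dim on all of these arrays (170 at 6 h), differed by 0.10.

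Lysosomal and nutrient-sensing genes were also among the higher ones. Gabarap, an LC3-family protein of autophagosomes, had a signal of 1929 at 6 h, against 1120, 1009 and 1392 in controls (1.66-fold), and 4210 to 4908 by 42 to 72 h. Flcn, the folliculin that tunes lysosomal signalling to mTORC1, read 1081 at 6 h, against 659, 654 and 651 in controls. Lamtor5, a Ragulator subunit, and Atp6v1a, a subunit of the lysosomal proton pump, were 1.61- and 1.58-fold higher. In the list of lysosome and autophagy genes, 2 of 23 measured (Sqstm1 and Gabarap) reached 1.5-fold higher and 0 lower. Above all controls lay 10 (43.5%) and below them 4 (17.4%), beside 25.8% and 29.6% of all genes. Flcn, Lamtor5 and Atp6v1a are not in that list and were named after their values were seen.

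Transcription factors and transporters completed the higher group. Myc read 2300 at 6 h, against 1447, 1074 and 1213 in controls (1.86-fold), then 3287 to 3497 at 18 to 30 h and 1331 to 1619 at 42 to 72 h. Klf5, Klf6, Nfil3, Id1 and Creb3l3 were 1.51- to 1.78-fold higher. Slc20a1, a sodium-phosphate cotransporter, had a signal of 5847 at 6 h, against 3171, 3081 and 2956 in controls, and 10988 to 13990 at 18 to 30 h. Snx10, a sorting nexin of endosomes, was 2.10-fold higher, and both measured probes of Tacc2, a centrosomal coiled-coil protein, were 2.01- and 1.87-fold higher. Egr1, an immediate early factor, went the other way, with a signal of 263 at 6 h, against 386, 409 and 453 in controls, and 1135 at 18 h. The 17 measured immediate early genes thus gave 2 higher (Myc and Klf6) and 1 lower.

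Further named members differed less than 2-fold at 6 h and are given by role. Among metabolic and detoxifying enzymes, Prdx6, a peroxiredoxin, had a signal of 10572 at 6 h, against 7422, 6415 and 6398 in controls (1.57-fold), and 8454 to 12546 later. Adh1c, an alcohol dehydrogenase whose probe may also bind related genes, was 1.71-fold higher, Sult1c2, a sulfotransferase, 1.55-fold and Me1, the cytosolic malic enzyme that yields NADPH, 1.51-fold. Me1 read 1410 at 6 h, against 1106, 823 and 902 in controls, and 1482 and 1476 at 42 and 48 h. Protein synthesis and folding were represented by Eif2b3, a subunit of the exchange factor for eIF2, with 1189 at 6 h, against 703, 729 and 616 in controls (1.75-fold), and by Bag2, a co-chaperone of HSP70 (1.75-fold). Both were above all controls on every later array. Secreted and cytoskeletal members were Fstl3, a follistatin-like antagonist of activin (1.65-fold), Lgals3, galectin-3 (1.61-fold), and Lcp1 (1.53-fold). S100a6, a calcium-binding protein, was 1.70-fold higher, but its controls spread from 654 to 1354.

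Among lower members, Pbld1 had a signal of 1091 at 6 h, against 2037, 1691 and 1874 in controls (1.71-fold lower), and 208 to 439 later. Hmgn2, a nucleosome-binding protein with many related copies in mammalian genomes, read 18285 at 6 h, against 29637, 27029 and 25839 in controls, and 3476 to 7965 later. Itpr1, the calcium release channel of the ER, read 985 at 6 h, against 1665, 1298 and 1776 in controls, and Tmbim6, an ER membrane protein that inhibits BAX-driven death, 3531, against 5847, 5624 and 4952. Slc35d2, a nucleotide sugar transporter, and Neu2, a sialidase, were 1.76- and 1.88-fold lower. Of probes without a symbol, 16 were up to 3.03-fold higher and 15 up to 2.23-fold lower. The highest of them, ILMN_1362645, read 559 at 6 h, against 193, 184 and 178 in controls, and 730 to 1031 later.

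A single-array rule has an edge, and genes on either side of it barely differ. Entpd5, an ER nucleotidase, was just inside at 1.501-fold, and Cxcl16 and Klf9 just outside at 1.495- and 1.494-fold higher. Hmgn2 and Chp1 were just inside at 1.502- and 1.501-fold lower, and the chaperones Hsp90aa1 and Dnajb1 just outside at 1.498- and 1.496-fold. Measured from the nearest control instead of the mean, 47 of the 88 and 25 of the 49 still differed 1.5-fold. Leaving out control 1, 2 or 3 gave 89, 109 or 93 higher and 53, 57 or 57 lower probes, with 76 to 78 of the 88 and 41 to 46 of the 49 shared. Slc7a11 was under 150 on all controls and Notch1 under it at 6 h.

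Most of the 137 probes were still displaced in the same direction on the later α-LA arrays, which are compared with the same 3 controls that chose them. At 18 h, 55 of the 88 were again at least 1.5-fold higher beyond all controls (7.52% of all probes measured) and 35 of the 49 again lower (7.71% of all). At 24 h the counts were 55 (8.13%) and 36 (8.5%), and at 30 h 59 (9.02%) and 41 (9.79%). At 42 h they were 61 (9.93%) and 38 (10.3%), at 48 h 63 (9.41%) and 38 (9.93%), and at 72 h 67 (9.07%) and 36 (9.29%). Because the controls are shared, a control that is low or high by chance raises these counts, and they carry no test. The median log2 difference of the 88 went through 0.79, 0.85, 0.94, 1.03, 1.12 and 1.06 from 18 to 72 h.

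**Figure D3:**
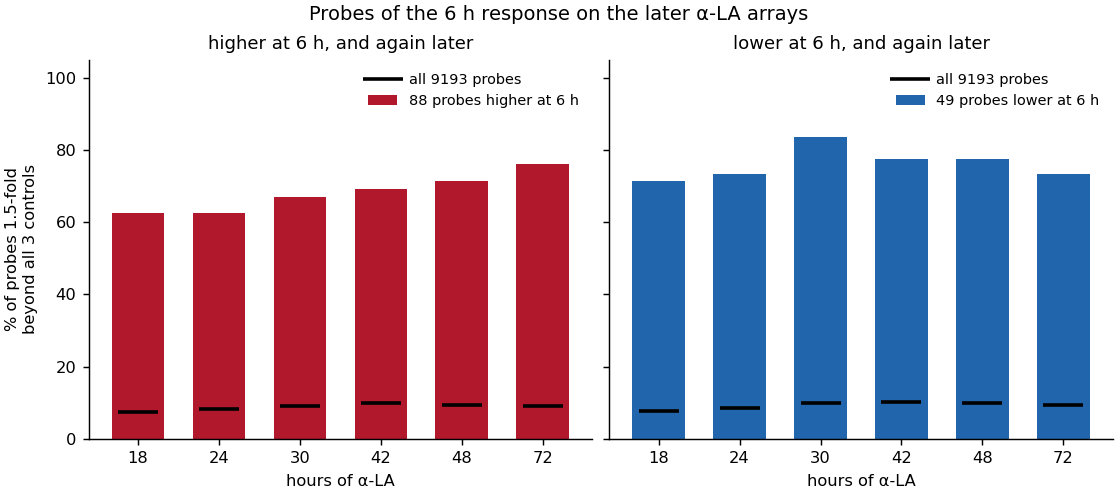
Bars give the percentage of the 88 probes higher at 6 h (left) and of the 49 lower at 6 h (right) that were again at least 1.5-fold beyond all 3 controls in the same direction at each later time; black marks give the same percentage over all 9193 probes. From 55 to 67 of 88 and from 35 to 41 of 49 met the condition, with the same controls used throughout.

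Over all 6 later arrays, 62 of the 88 stayed above every control (16.2% of all probes did so) and 37 of the 49 stayed below (15% of all). The remaining members returned or crossed over. Among the 7 α-LA times, 18 of the 88 had their highest signal at 6 h, as many as at 72 h, and 9 of the 49 had their lowest signal at 6 h. Choosing probes by their 6 h signal favours an extreme at that time, and the same counts over all probes were not taken. Besides Gpx1, Selenow, Gclm, Txnrd1 and Nqo1, the 18 included 1 probe of Sqstm1, Id1, an inhibitor of differentiation factors, and Slc6a9, a glycine transporter. The 9 included Cxcl1, Atp1b1, Errfi1 and Egr1. Atp1b1, the beta subunit of the sodium pump, read 697 at 6 h, against 1261, 1193 and 1397 in controls, and 1676 to 2037 at 18 to 30 h.

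A few genes changed sides. Lgr5, a receptor for R-spondins in Wnt signalling, had a signal of 1411 at 6 h, against 1075, 737 and 699 in controls, and lay below every control on all later arrays (527, 468, 388, 282, 246 and 271). Ugt2b7, a glucuronosyltransferase whose probe may also bind transcripts of close family members, read 13858 at 6 h, against 9402, 7265 and 8173 in controls, and 4420 to 7176 later. Lgr5 was thus higher than the controls first and clearly lower from 18 h on. For Ugt2b7, signals at 18, 24, 30 and 72 h (6983, 7046, 7176 and 7121) lay only just under the lowest control. Those at 42 and 48 h (4420 and 5559) lay further below.

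**Figure D4:**
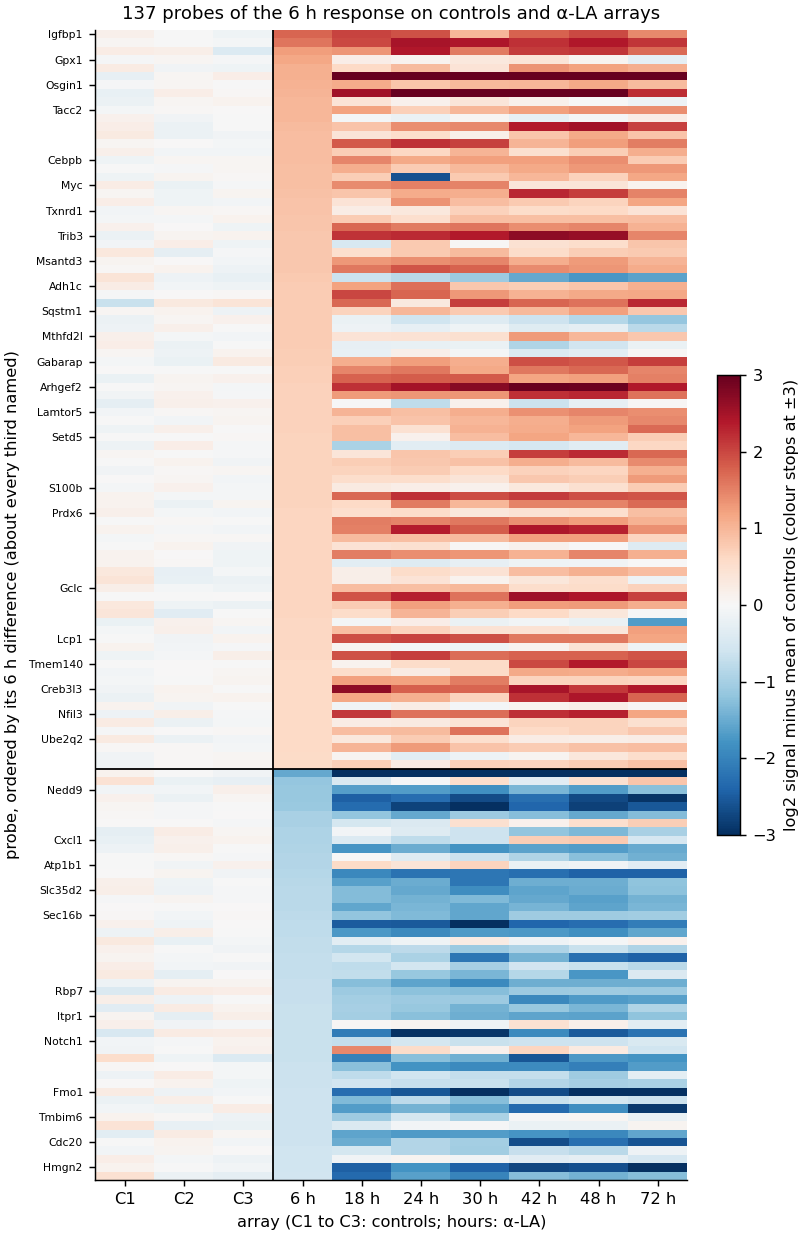
Each row is 1 of the 137 probes of the 6 h response, ordered by its 6 h difference, and each column an array (controls C1 to C3, then α-LA at 6 to 72 h); colour gives log2 signal minus the mean of the controls and stops at 3 either way. Upper rows are mostly red and lower rows mostly blue to 72 h, with pale or reversed rows such as Gpx1 and Lgr5.

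How the 6 h genes went on was tested on arrays that had no part in the 1.5-fold rule. These arrays did count in the filter that asks for a signal of 150 on at least 3 arrays. Slc7a11 passed that filter only through later arrays. Without the filter the rule chose the same 88 higher and 49 lower probes. Late α-LA arrays (42, 48 and 72 h) were compared with early ones (18, 24 and 30 h) using limma, with p-values adjusted over all 9193 probes by Benjamini-Hochberg. These arrays are different hours taken as replicates, so that the spread holds both time and sample differences. Of the 88 higher probes 14 rose and 10 fell from early to late (6.28% of all probes rose and 7.24% fell), and of the 49 lower probes 4 rose and 7 fell. The median late minus early log2 difference was 0.11 for the 88, 0.04 for the 49 and 0.00 for all probes. Without the 42 h array all-probe counts dropped to 271 rises and 328 falls from 577 and 666, and without the 48 h array to 317 and 425. Counts over the 137 were 18 rises and 17 falls with all arrays and 13 to 19 and 11 to 15 with 1 array left out.

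Several stress and growth genes of the 6 h response took a second step. Hspb8, a small heat shock protein, averaged 4300 ± 735 late and 1661 ± 269 early (SD, n = 3 each), a log2 difference of 1.37 ± 0.15 (SE; limma adjusted p = 0.0013). Tmem140, a membrane protein, rose by 1.70 ± 0.15 (adjusted p = 0.00063) and Klf6, a Krüppel-like factor, by 1.17 ± 0.17 (adjusted p = 0.0028). A second, brighter probe of Tmem140 was not a member. It read 935 at 6 h, against 544.5 to 715 in controls, a log2 difference of 0.556. Plat, tissue plasminogen activator, rose by 0.93 ± 0.18 (adjusted p = 0.0083) and Gabarap by 0.81 ± 0.11 (adjusted p = 0.0023). Slc7a11 rose by 0.69 ± 0.11 (adjusted p = 0.0041). These limma calls held when any 1 of the arrays was left out.

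Falls between the same groups included genes of proliferation. Cdc20, an activator of the anaphase-promoting complex that was 1.54-fold lower at 6 h, averaged 382 ± 58.1 late and 999 ± 211 early (log2 difference -1.37 ± 0.16, limma adjusted p = 0.0014). Myc averaged 1510 ± 156 late and 3413 ± 111 early, a difference of -1.18 ± 0.10 (limma adjusted p = 0.00063). Slc20a1 fell by 0.76 ± 0.14 (limma adjusted p = 0.0062), Atp1b1 by 0.76 ± 0.11 (adjusted p = 0.0023) and Lgr5 by 0.78 ± 0.12 (adjusted p = 0.0033). For Ddit3 the difference was 0.29 ± 0.33 with limma (adjusted p = 0.62). Without the 72 h array, where Ddit3 was lowest of the 3 late ones, it was 0.78 (adjusted p = 0.014). Trib3 behaved alike, with 0.00 ± 0.26 (limma adjusted p = 0.999) on all arrays and 0.40 (adjusted p = 0.036) without the 72 h array.

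Early α-LA arrays were also set against the TG arrays, to see which genes of the first response separate the agents later. With limma, 31 of the 88 higher probes were higher under early α-LA than under TG and 19 lower (12.5% of all probes each way), and of the 49 lower probes 12 were higher and 5 lower. Groups held 3 α-LA and 2 TG arrays, whose hours differ by title and by protocol. Without either TG array the counts over the 137 went to 27 or 28 higher and 10 or 12 lower, from 43 and 24, and those over all probes to 490 or 493 and 401 or 431, from 1146 and 1149.

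Gclc and Gclm, NRF2 targets for glutathione synthesis, were higher under early α-LA than under TG. Gclc averaged 7676 ± 178 under early α-LA (SD, n = 3) and 2375 ± 197 under TG (SD, n = 2), a log2 difference of 1.70 ± 0.11 (SE; limma adjusted p = 9.4e-06). Both TG signals of Gclc (2514 and 2235) lay below the controls (3706 to 4531), so the difference includes a lower signal under TG. Gclm averaged 4856 ± 414 under early α-LA and 2738 ± 158 under TG, a difference of 0.82 ± 0.14 (limma adjusted p = 0.0018). Its early α-LA signals (4464 to 5289) were near those of the controls (4690 to 5486), whereas both TG signals (2849 and 2626) lay below them. Osgin1 averaged 2804 ± 280 under early α-LA and 1471 ± 14.3 under TG (0.93 ± 0.12, limma adjusted p = 0.00035). Not all NRF2-linked genes followed. Hmox1 read 1196 to 1631 under early α-LA and 1304 and 1214 under TG, a difference of 0.15 ± 0.14 (limma adjusted p = 0.49). Nqo1, Slc7a11 and Me1 were not called either, with differences of 0.26, 0.33 and 0.16 (limma adjusted p = 0.57, 0.082 and 0.39). All 3 Sqstm1 probes were called lower under early α-LA than under TG. For the probe with signals of 862, 1081 and 944 under early α-LA and 1722 and 1701 under TG, the difference was -0.84 ± 0.14 (limma adjusted p = 0.0018), and this call held without either TG array, which those of the other probes did not.

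Stress genes differed in both directions. Ddit3 averaged 4503 ± 956 under early α-LA and 13535 ± 354 under TG, a log2 difference of -1.61 ± 0.37 (limma adjusted p = 0.0094), and missed the threshold without the 18 h or the 24 h TG array (adjusted p = 0.073 and 0.078). Gdf15 averaged 3744 ± 345 under early α-LA and 1916 ± 157 under TG (0.97 ± 0.12, limma adjusted p = 0.00035). Hspb8 was lower under early α-LA than under TG by -1.42 ± 0.17 (limma adjusted p = 0.00025) and Plat by -1.22 ± 0.20 (adjusted p = 0.0016). Trib3 differed by -0.29 ± 0.29 (limma adjusted p = 0.53).

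**Figure D5:**
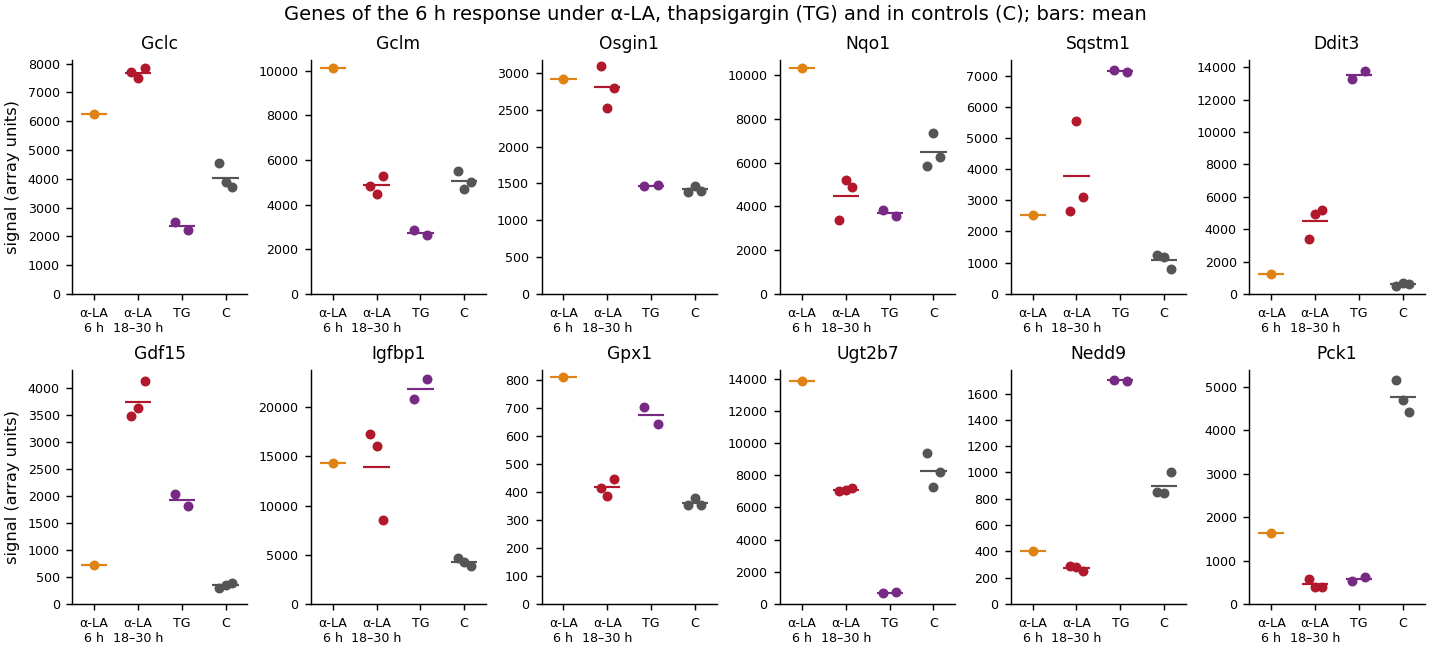
Signal (array units, axes from 0) of 12 genes of the 6 h response on the α-LA 6 h array, the 3 early α-LA arrays (18 to 30 h), the 2 thapsigargin arrays (TG) and the 3 controls (C); bars mark means. Gclc, Osgin1 and Gdf15 are higher under early α-LA than under TG, Ddit3 and Nedd9 are lower, and Pck1 is low under both.

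Some genes less often tied to stress lay further apart. Nedd9 averaged 273 ± 20.5 under early α-LA and 1701 ± 5.2 under TG, a log2 difference of -2.64 ± 0.13 (limma adjusted p = 2.9e-06). It lay below the controls under α-LA and above them under TG. Ugt2b7 averaged 7068 ± 98.0 under early α-LA and 702 ± 59.9 under TG (3.33 ± 0.17, limma adjusted p = 2.9e-06). Rnf125, a ubiquitin ligase, differed by 2.45 ± 0.18 (limma adjusted p = 1.7e-05), Lcp1, an actin-bundling protein, by 2.12 ± 0.14 (adjusted p = 1e-05) and Egr1 by 2.15 ± 0.38 (adjusted p = 0.0024). Creb3l3, a liver transcription factor of the ER membrane, differed by 2.45 ± 0.24 (limma adjusted p = 9.3e-05). TG signals of Lcp1 (156 and 131), Egr1 (138 and 169) and Creb3l3 (137 and 159) were near background, which limits the size of these differences.

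Pck1, G6pc1 and Sgk1 were below the controls under both agents. Pck1 read 577, 395 and 396 under early α-LA and 536 and 631 under TG, a log2 difference of -0.37 ± 0.17 (limma adjusted p = 0.14). G6pc1 read 260, 215 and 221 under early α-LA and 178 and 183 under TG, a difference of 0.36 ± 0.12 (limma adjusted p = 0.045), which missed the threshold without the 18 or 30 h α-LA array or either TG array (adjusted p = 0.061 to 0.22). Sgk1 read 750, 837 and 638 under early α-LA and 713 and 687 under TG, a difference of 0.07 ± 0.18 (limma adjusted p = 0.81). Igfbp1 was high under both, with 8488 to 17322 under early α-LA and 20887 and 22828 under TG (-0.71 ± 0.26, limma adjusted p = 0.073). Against the controls, 47 and 46 of the 88 were at least 1.5-fold higher on the 18 and 24 h TG arrays (10.8% and 10.3% of all probes) and 39 and 38 of the 49 lower (10.7% and 10.5%), again with the same controls.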

How the data were processed

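RNA of 12 FaO samples was hybridised to Illumina rat bead arrays. The authors read the arrays in BeadStudio 3.0.19.0 and applied quantile normalization, and the deposited table holds the resulting intensity values on a linear scale, from 88.3 to 55971 units, with background still in them. Their number limits precision. A table of values before normalization has 24 per-sample columns with names that fit no sample here, so it was left out together with its detection p-values. Values were log2-transformed in Python 3.11.15 (numpy 2.4.6, pandas 2.3.3), and 9193 probes with a signal of at least 150 on at least 3 arrays were kept. The 6 h differences were taken from the mean log2 signal of the controls. Comparisons of early and late α-LA and TG arrays used limma 3.58.1 in R 4.3.3 (lmFit, eBayes, 3 groups, neither controls nor the 6 h array) with Benjamini-Hochberg adjustment at 0.05, after the scripts had been tested on simulated data. A probe under 150 on all arrays of a group gives a bound against 150. Symbols came from the platform annotation, updated through gene identifiers (13793 probes named, 8730 not). A gene with several probes entered lists through its brightest probe on average.

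The rule for 6 h genes and the 28 lists were chosen with earlier results of these data known. Genes named are members of the response with the largest differences or in a list, the largest differences of each list, genes the paper names, members that changed sides or had the largest late or TG differences, and those nearest the 1.5-fold limit; other members named were chosen after their values were seen. Alternatives varied the filter, the fold, the background, the scaling, the centre of the controls and the arrays left out. Arrays of a limma group are different hours, so its p-values rest on a spread that mixes time and sample differences. Whether the arrays came from separate cultures is not given, so how far that spread covers differences between cultures is not known.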

Additional observations from a re-analysis of the deposited data

Results flagged for a closer look

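Against the same 3 controls, 4 probes of the 6 h response were higher at 6 h and below the mean of the controls on each of the 6 later α-LA arrays. The 6 h log2 differences were 0.78 for Lgr5, 0.75 for Ugt2b7, and 0.76 for each of 2 probes without a symbol (ILMN_1374127 and ILMN_1369290). The last read 261 at 30 h, against 260 in the lowest control, and the other 3 probes lay below every control. With 1 array at 6 h, this difference between times was not tested.

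Between late and early α-LA arrays, limma called several members. Log2 differences were 1.70 for Tmem140, 1.37 for Hspb8, 1.17 for Klf6, 0.93 for Plat and 0.93 for Cxcl1, and -1.37 for Cdc20, -1.18 for Myc, -0.86 for Hdc, -0.82 for Tle2 and -0.81 for Xkr5. The call of Cxcl1 was lost without either of the 42 and 48 h arrays (0.73 and 0.71, adjusted p = 0.17 and 0.15) and without any 1 of the early arrays (adjusted p = 0.065 to 0.11), and that of Xkr5 without the 24, 30 or 42 h array (adjusted p = 0.061 to 0.072).

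Between early α-LA and TG arrays, limma called differences in size or direction for members of the first response. Log2 differences were 3.33 for Ugt2b7, 2.45 for Creb3l3, 2.45 for Rnf125, 2.15 for Egr1 and 2.12 for Lcp1. TG signals of Creb3l3, Egr1 and Lcp1 were near background. Lower under early α-LA were Nedd9 (-2.64), Tmem254 (-1.71), Ddit3 (-1.61), Hspb8 (-1.42) and Plat (-1.22). The call of Ddit3 was lost without either TG array (adjusted p = 0.073 and 0.078).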

How the results depend on the processing

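A threshold of 2-fold left 11 higher and 5 lower probes at 6 h. Subtracting the 5th percentile of each array as background, with a floor of 50, gave 235 higher and 188 lower, with all 88 and all 49 among them. Measuring from the nearest control, chosen after the data were seen, gave 47 and 25. With each control left out in turn, counts were 89 to 109 and 53 to 57. A filter on median signal, no filter, no range condition, median centring and the linear mean of the controls kept counts within 1.5 times. Of 642 values of named genes at 6 h across settings 0 reversed and 42 moved by more than 1 SD of the controls. Late minus early, background subtraction gave 380 rises over all probes and 11 falls over the 137, and leaving out 1 array gave 271 to 609 rises and 328 to 650 falls over all probes, and 13 to 19 rises and 11 to 15 falls over the 137. Early α-LA minus TG, background subtraction left 15 lower among the 137, and leaving out 1 array gave 490 to 1308 higher and 401 to 1324 lower over all probes, and 27 to 44 and 10 to 26 over the 137. Dropping an array of TG leaves 1, assumed to vary like the other groups. Counts of members at later times moved by less than 1.5 times under every setting tried, all chosen after the data were seen. No named limma difference reversed among those run, but some limma calls were lost with 1 array left out. For late minus early these were Chp1, Cxcl1, Gclc, Hmgn2, ILMN_1374127, Lcp1, Rnf125, Snx10, Tmem254 and Xkr5. For early α-LA minus TG they were Alb, Cebpb, Cpped1, Cyp2e1, Ddit3, Fmo1, Fnbp4, G6pc1, Gpx1, Lgr5, Snx10, 2 probes of Sqstm1, Tmem140 and Txnrd1. The causes were not tested. No paired analysis was run. By title the TG arrays share their hours with arrays of early α-LA, but the TG hours in the treatment protocol differ from the titles. Late and early α-LA arrays share no hour, and control numbers do not pair controls with other arrays. Background near 130 limits what can be read of dim genes.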

Other observations

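Proliferation genes lay slightly but widely below the controls at 6 h. Of 24 measured genes of G2 and mitosis, 19 lay below all 3 controls and 0 above, with a median log2 difference of -0.27, and 1, Cdc20, reached 1.5-fold. Its signal was 1393 at 6 h, against 2115, 2291 and 2037 in controls. Of 30 genes of S phase and DNA replication, 23 lay below all controls and 1 (Pola1) above, with a median of -0.25, and 0 reached 1.5-fold. Aurkb, a mitotic kinase, read 1825 at 6 h, against 3026, 2235 and 2720 in controls, and Ccna2, cyclin A2, read 1818, against 2981, 2367 and 2367. On the 72 h array these genes read 298 and 206. Over all genes 29.6% lay below the 3 controls. The hour at which controls were taken is not given, so hours in culture and hours of α-LA cannot be told apart.

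Of 11 measured heat shock genes, Hspb8 was 1.5-fold higher, and Hsp90aa1, Dnajb1 and Dnaja1 had log2 differences of -0.58, -0.58 and -0.51. Of 15 secreted hepatocyte proteins 10 lay below all controls and 0 above, with a median of -0.17, beside 29.6% below over all genes, and Ttr reached 1.5-fold lower. In the list of lipoate synthesis and lipoate enzymes, 0 of 18 measured genes reached 1.5-fold, with log2 differences from -0.25 to 0.21.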
